A study of Mus musculus with 23 samples.

Results

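The forkhead, Sox, T-box and Gata genes are 4 families of transcription factors, each named for the protein domain or DNA motif by which its members bind DNA. Members were chosen by name, as genes in both deposited tables whose symbols start with Fox and a letter, Sox, Tbx or Gata followed by a digit. Foxm1, Sox4, Gata4 and Gata6 were left out, as were the antisense or overlapping transcripts whose names end in os or ot. This gave 78 of 22517 named genes, made up of 43 forkhead, 18 Sox, 13 T-box and 4 Gata genes, and all 78 were kept whether or not the authors had tested them.

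RNA was sequenced from 3 groups of mouse intestinal cells with 3 libraries each, on a mixed B6;129 background. Control villus, called wild-type here, came from EedF/F; Cre- mice, and Eed-null villus from EedF/F; Villin-CRE mice, in which Cre is driven in the intestinal epithelium and other cells keep Eed. Intestinal stem cells (ISC) were sorted for high GFP from crypts of Eed+/+; Lgr5-EGFP-IRES-CREERT2 mice. All 3 groups came from the proximal 1/3 of the intestine, and mice of all 9 libraries had been given 1 to 2 mg of tamoxifen on each of 5 days, the controls included. Villus epithelium was frozen after release with EDTA, whereas the stem cells were also dissociated by enzyme and sorted, so cell type and handling cannot be told apart. The sources used here do not give the age of the mice or the time from tamoxifen to collection. The Eed protein belongs to the core of Polycomb repressive complex 2, which places the repressive histone mark H3K27me3. Its own RNA stood at 9.17 RPKM, the read count scaled by gene length and library size, in wild-type and 3.00 RPKM in Eed-null villus (q = 6.29e-06, the authors' deposited table).

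Most genes of these families act in the embryo, where they set the fate of a tissue, and many are silent in the adult organ. Silent developmental regulators of this kind often have promoters rich in CpG dinucleotides and are classical targets of Polycomb repression. In the gut, FoxA factors open chromatin in endoderm, FoxF factors and Foxl1 belong to the mesenchyme below the epithelium, Sox9 marks the proliferating crypt and Paneth cells, and Gata factors regulate genes of the absorptive epithelium.

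The deposited tables give 1 RPKM value per group and gene, so the spread over libraries cannot be shown, and depth is unknown. A gene is called here where its status was OK, meaning that the authors tested it, and its q from the authors did not exceed 0.05. All 8 epithelial markers were at 1 RPKM or more in each group. Every group was an epithelial preparation, so these markers cannot check which label belongs to which group. Between the villus groups, Cdx2 was called lower in Eed-null villus, at 31.1 against 61.0 RPKM in wild-type (q = 0.000487, the authors' deposited table). Krt18 was called higher in Eed-null villus, at 230 against 124 RPKM in wild-type (q = 0.00199, the authors' deposited table). All 10 endothelial markers and 10 of 12 mesenchymal markers were below 1 RPKM in both villus groups. Of 12 markers of T cells and innate lymphoid cells, only 3 were below 1 RPKM in wild-type and 4 in Eed-null villus. Their sums of 100.1 and 63.4 RPKM show that the villus preparations also held lymphocyte RNA.

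Which of these regulators are expressed at all in the 3 groups was read first from the levels. In wild-type villus, 21 of 78 members reached 1 RPKM, in ISC 20, and in Eed-null villus 24. All 20 of the ISC members were also among the 21 of wild-type villus. The 3 further members in Eed-null villus were Foxd3, Foxf2 and Tbx15. At the other end, 9 members are listed at 0 in all 3 groups, namely Foxb2, Foxe3, Foxi1, Foxi2, Foxn4, Foxr2, Foxs1, Gata1 and Tbx19.

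Tbx3, a T-box repressor known from limb and heart development, had the highest level of the 78 in wild-type villus, at 46.1 RPKM in the table that pairs villus with ISC. Gata5, a Gata factor of the gut epithelium, followed with 28.3 RPKM, and Sox13, a group D Sox factor, with 24.0 RPKM in the authors' deposited table. In ISC the order was different. Foxp4, a forkhead factor of gut and lung development, led with 27.7 RPKM and Sox9 followed with 19.2 RPKM in the authors' deposited table. In Eed-null villus Tbx3 led with 46.7 RPKM and Foxq1, a forkhead factor of epithelia, was next with 30.1 RPKM in the table that pairs the villus groups. The tables were scaled separately by the authors, with wild-type villus values in the former equal to 1.16193 times those in the latter. The plot of levels brings all 3 groups to the former scale, and no test was made across the tables.

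**Figure D1:**
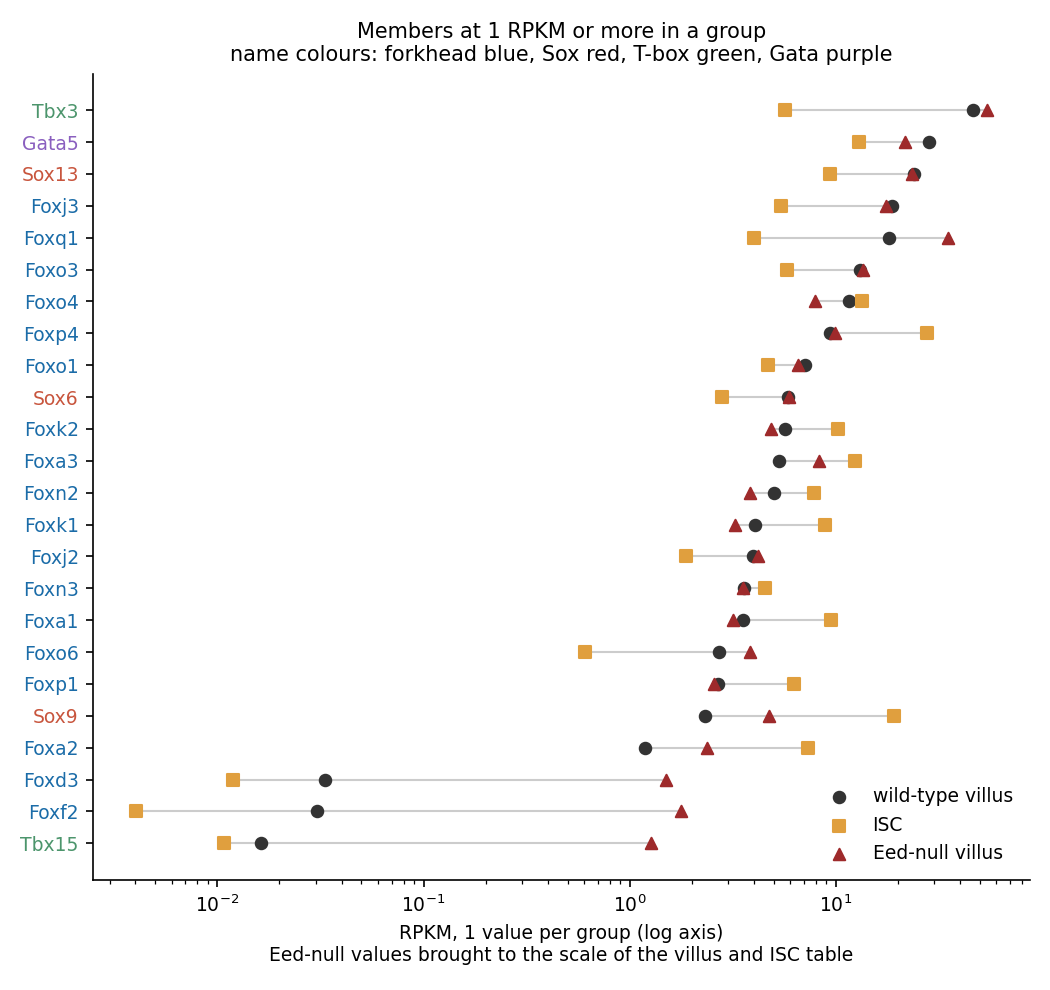
RPKM in wild-type villus, ISC and Eed-null villus, 1 authors' value per group on a log axis, for the 24 members at 1 RPKM or more in a group, with Eed-null values multiplied by 1.16193 to share the scale. The 3 lowest rows, Foxd3, Foxf2 and Tbx15, are below 0.1 RPKM in wild-type villus and ISC and above 1 RPKM in Eed-null villus, while wild-type and Eed-null villus lie close together in most other rows.

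The comparison of Eed-null with wild-type villus asked which regulators differed in RNA level between the villus groups. Whether a gene depends directly on Polycomb repressive complex 2 was not tested. Of the 78 members, 9 were called higher in Eed-null villus and 0 lower, 21 were tested and not called, and 48 were not tested. The 9 were Foxd3, Foxf2, Foxl2, Foxq1, Gata3, Sox9, Sox17, Tbx15 and Tbx18. Over all 12525 genes tested, 7.90% were called higher and 3.46% lower, or 11.4% in all. At an unadjusted p at or below 0.05 in the authors' deposited table, 1 tested member, Foxo4, was lower, as were 8.82% of all tested genes.

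The 9 fell into 2 kinds. Foxq1 and Sox9 were already expressed in wild-type villus, and their values in Eed-null villus were about double. The other 7 were below 0.1 RPKM in both wild-type villus and ISC and reached between 0.477 and 1.53 RPKM in Eed-null villus, which is low beside the other expressed members. A gene as low as these in wild-type villus was tested only if its Eed-null value was high, since the lowest tested gene of the whole table reached 0.351 RPKM in its higher group. The 7 calls therefore had to be in the higher direction and are given as a description. With at least 1 RPKM required in a group, 5 members were called higher, beside 6.92% of all genes so tested. By a ratio of 2 and at least 1 RPKM, with no test, 4 were higher, beside 3.25% of all named genes. In both counts, Foxd3, Foxf2 and Tbx15 reached 1 RPKM only in Eed-null villus, so they too could only be higher. Among all tested genes below 1 RPKM in wild-type villus, 23.7% were called higher, and among those at 1 RPKM or more 4.50% were called higher and 4.03% lower.

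**Figure D2:**
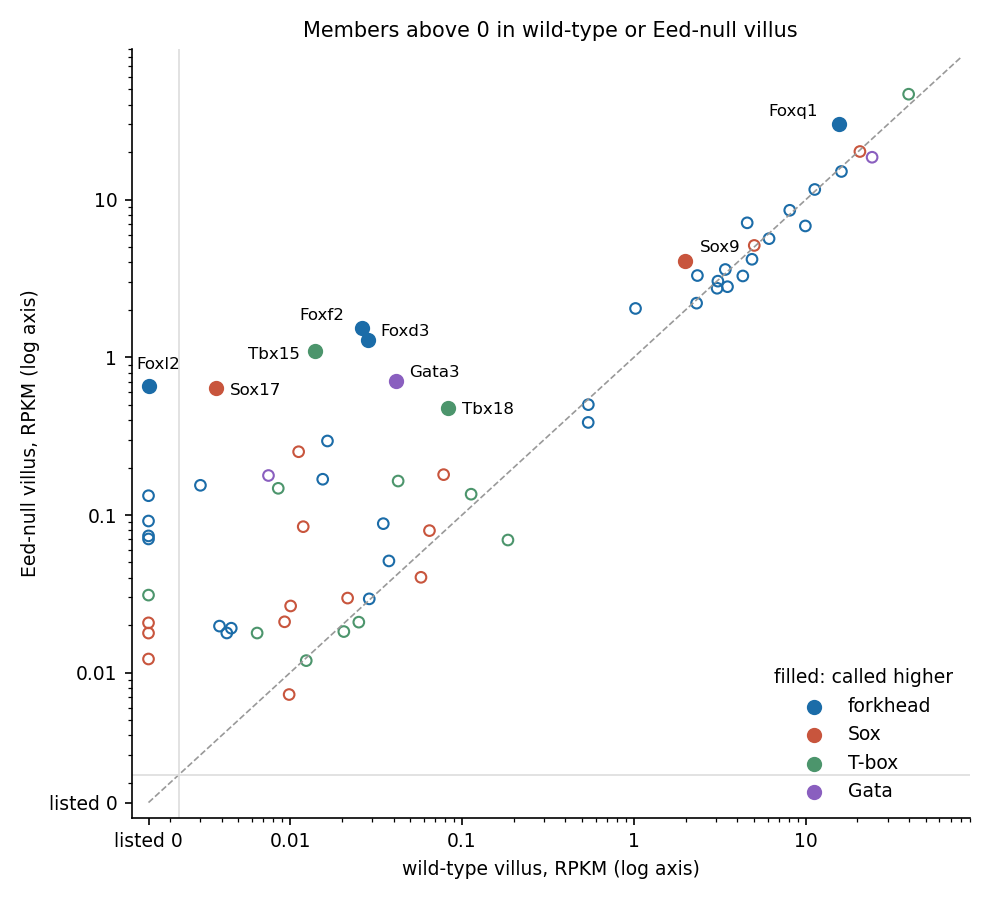
RPKM in Eed-null against wild-type villus for the 65 members above 0 in a group, on log axes with values listed at 0 set on the margins; filled points were called higher and the dashed line marks equal values. Members at 1 RPKM or more lie near the line, with Foxq1, Sox9 and the uncalled Foxa2 and Foxa3 above it, and most members below 1 RPKM lie above it.

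Among the forkhead genes, Foxf2, a factor of the gut mesenchyme, had 0.0262 RPKM in wild-type and 1.53 RPKM in Eed-null villus, a 58.5-fold difference (q = 2.05e-05, the authors' deposited table). Foxd3, which keeps neural crest and pluripotent cells undifferentiated, had 0.0285 and 1.29 RPKM, a 45.4-fold difference (q = 3.5e-05, the authors' deposited table). Both genes were lower still in ISC, where the authors' deposited table lists 0.00402 RPKM for Foxf2 and 0.0119 RPKM for Foxd3. Foxl2, a factor of the ovarian granulosa cell, is listed at 0 in wild-type villus and in ISC and had 0.661 RPKM in Eed-null villus (q = 6.2e-05, the authors' deposited table). No fold is given for Foxl2, because a listed 0 can be a failed estimate.

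Among the T-box genes, Tbx15, a factor of skeletal and adipose development, had 0.0140 RPKM in wild-type and 1.10 RPKM in Eed-null villus, a 78.6-fold difference (q = 3.04e-05, the authors' deposited table). Tbx18, known from the epicardium and the ureter wall, had 0.0827 and 0.477 RPKM, a 5.77-fold difference (q = 0.000165, the authors' deposited table). Tbx18 is listed at 0 in ISC, and Tbx15 at 0.0108 RPKM there. Of the other 11 T-box genes only Tbx3 was tested.

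Gata3, which directs T cell, trophoblast and mammary cell fates, had 0.0416 RPKM in wild-type and 0.706 RPKM in Eed-null villus, a 17.0-fold difference (q = 2.59e-05, the authors' deposited table). In ISC it stood at 0.0177 RPKM. Sox17, a group F Sox factor of definitive endoderm and endothelium, had 0.00369 and 0.635 RPKM in wild-type and Eed-null villus, a 172-fold difference (q = 0.0441, the authors' deposited table). It is listed at 0 in ISC. Sox17 thus had the largest ratio of the 8 called members above 0 in wild-type villus and the q nearest the threshold, and it was not called at a q of 0.01. The reads behind such low bases are unknown, and no error of the ratios is printed.

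Sox9, the group E factor of the crypt and of Paneth cells, had 1.99 RPKM in wild-type and 4.10 RPKM in Eed-null villus, a 2.06-fold difference (q = 0.00523, the authors' deposited table). Foxq1 had 15.6 and 30.1 RPKM, a 1.93-fold difference (q = 0.00129, the authors' deposited table). These 2 members were also called between villus and ISC, and in opposite directions. Sox9 was lower in wild-type villus than in ISC, so its Eed-null level lay between them at 4.76 RPKM on the common scale, beside 2.32 RPKM in wild-type villus and 19.2 RPKM in ISC. Foxq1 was higher in wild-type villus than in ISC, and its Eed-null level of 35.0 RPKM on the common scale lay above both, beside 18.1 and 4.03 RPKM. The comparisons share the wild-type villus libraries, so these values are given side by side only.

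The promoters of 5 called members are shown because these genes were below 0.1 RPKM in wild-type villus and were called in Eed-null villus. RefSeq promoter sequences on build GRCm38.p6 were at hand for 53 of 78 members and for 5 of the 9 called, leaving Foxq1, Sox9, Sox17 and Tbx15 without one. With 67.9% of members covered, under the 80% set as the minimum, a comparison of promoter composition over all members is void, and only the printed promoters are described. Each run gives the 250 bases before the gene's start, 5′ to 3′ on the gene's strand, with every CpG dinucleotide in capitals.
Foxf2, chr13:31625566-31625815, plus strand: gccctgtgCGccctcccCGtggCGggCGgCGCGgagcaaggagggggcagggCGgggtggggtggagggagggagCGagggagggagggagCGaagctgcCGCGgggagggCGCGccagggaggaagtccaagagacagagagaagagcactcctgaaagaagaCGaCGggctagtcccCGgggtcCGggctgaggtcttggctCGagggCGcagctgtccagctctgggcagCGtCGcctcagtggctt
Foxd3, chr4:99656049-99656298, plus strand: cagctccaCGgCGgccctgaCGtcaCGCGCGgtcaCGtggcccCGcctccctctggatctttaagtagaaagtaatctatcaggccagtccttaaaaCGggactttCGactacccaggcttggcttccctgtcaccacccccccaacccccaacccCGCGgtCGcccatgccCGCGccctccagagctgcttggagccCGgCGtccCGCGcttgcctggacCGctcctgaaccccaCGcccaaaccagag
Foxl2, chr9:98955357-98955606, plus strand: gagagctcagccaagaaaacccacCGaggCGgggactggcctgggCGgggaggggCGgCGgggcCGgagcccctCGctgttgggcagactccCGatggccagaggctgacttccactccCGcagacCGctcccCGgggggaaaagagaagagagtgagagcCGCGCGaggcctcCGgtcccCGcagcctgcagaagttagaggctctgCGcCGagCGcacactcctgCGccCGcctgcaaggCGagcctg
Gata3, chr2:9878601-9878850, minus strand: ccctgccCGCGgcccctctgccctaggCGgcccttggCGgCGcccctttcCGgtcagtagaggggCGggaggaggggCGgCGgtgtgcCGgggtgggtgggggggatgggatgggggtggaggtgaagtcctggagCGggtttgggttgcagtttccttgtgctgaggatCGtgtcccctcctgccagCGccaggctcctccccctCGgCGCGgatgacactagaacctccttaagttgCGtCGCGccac
Tbx18, chr9:87731261-87731510, minus strand: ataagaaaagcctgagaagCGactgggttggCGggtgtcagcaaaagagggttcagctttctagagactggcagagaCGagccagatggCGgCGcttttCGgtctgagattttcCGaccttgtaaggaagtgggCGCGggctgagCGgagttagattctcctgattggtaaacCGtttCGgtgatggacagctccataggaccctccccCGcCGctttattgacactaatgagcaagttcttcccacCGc

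The CpG count was 21 in Foxf2, 21 in Foxd3, 22 in Foxl2, 19 in Gata3 and 15 in Tbx18, where the median over 27025 genes with an entry was 6. The Foxf2 and Foxd3 counts exceeded those of 83.9% of all promoters, that of Foxl2 85.4%, that of Gata3 80.4% and that of Tbx18 72.5%. These windows were also searched on both strands for short core motifs of the 4 families. The forkhead core TGTTTA, the Sox core ACAATG and the Gata core AGATAA had 0 matches in the 5 windows, and occur in 12.0%, 11.0% and 10.3% of all promoters. The T-box core GGTGTG, found in 16.2% of all promoters, matched in Gata3 alone.

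Foxq1 and Sox9 were the 2 called among the 21 members that reached 1 RPKM in wild-type villus. Of all 10307 tested genes at that level, 4.50% were called higher and 4.03% lower, so 2 of 21 is near the general share. The 21 tested members that were not called had Eed-null values from 0.685 to 2.00 times those of wild-type villus, with 8 higher and 13 lower. Among FoxA genes, Foxa2 had 1.02 RPKM in wild-type and 2.04 RPKM in Eed-null villus (q = 0.0904, the authors' deposited table). Foxa3 had 4.56 and 7.13 RPKM with q = 0.163, and Foxa1 3.05 and 2.74 RPKM (q = 0.872, the authors' deposited table). No FoxA gene passed the threshold, and Foxa2 lay just outside it.

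A set of 13 forkhead genes, grouped as broadly expressed, held the FoxO and FoxK genes, Foxp1, Foxp2, Foxp4, Foxn2, Foxn3, Foxj2 and Foxj3. Foxp3, Foxn1, Foxn4 and Foxj1 were grouped with other lineages. Foxp2 is listed at 0 in both villus groups, so the name does not hold for it here, and it was not tested. The other 12 were tested and none was called, Foxo4 alone having an unadjusted p at or below 0.05. All 12 passed 1 RPKM in control villus. Calls were few among tested genes of that range, with 4.50% higher and 4.03% lower, so the lack of calls does not set the 12 apart. FoxO factors are restrained by insulin signalling and act in stress resistance and metabolism. Foxo3 had 11.3 RPKM in wild-type and 11.6 RPKM in Eed-null villus, and Foxo4 9.95 and 6.81 RPKM, with q = 0.976 and q = 0.166 in the authors' deposited table. Foxj3 had 16.1 and 15.1 RPKM and Foxp4 8.07 and 8.57 RPKM, with q = 0.900 and q = 0.930 in the authors' deposited table. Tbx3 had 39.7 and 46.7 RPKM with q = 0.654, and Gata5 24.3 and 18.6 RPKM (q = 0.346, the authors' deposited table). Sox13 had 20.7 and 20.2 RPKM with q = 0.982, and Sox6, its relative in group D, 5.02 and 5.13 RPKM (q = 0.984, the authors' deposited table). A q above the threshold does not show that these levels were equal.

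The 48 members not tested had at most 0.185 RPKM in wild-type villus and 0.295 RPKM in Eed-null villus. Their values were higher in Eed-null villus in 29, lower in 6 and listed at 0 in both villus groups in 13. The 6 lower were Sox11, Sox15, Tbx5, Tbx6, Tbx10 and Tbx22. Over all members below 1 RPKM in wild-type villus, 36 of the 44 above 0 in a group had the higher value in Eed-null villus, or 81.8%, beside 68.4% of 7569 genes in the same range. Genes chosen by a low wild-type value tend to be higher in the other group, and at 1 RPKM or more the share was 36.5% of 10353 genes. Levels within the range were not matched, so these shares are a description. Over all 78 members the median difference of log2(RPKM + 1) was 0.02 and over all named genes 0.00.

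The authors' tables print a p also for rows they did not test, and it was at or below 0.05 for 8 of the 48, all higher in Eed-null villus. These were Foxc1, Foxd1, Foxd2, Foxn1, Gata2, Sox12, Sox21 and Tbx20. With at most 0.185 RPKM in wild-type villus, the 48 had little room to be lower. The share of all untested genes with such a p was not counted, so the 8 are given as a description. Foxc1, a factor of mesenchyme and eye development, had 0.0165 RPKM in wild-type and 0.295 RPKM in Eed-null villus in the authors' deposited table. Sox21, a group B Sox factor of neural and epithelial progenitors, had 0.0112 and 0.252 RPKM, and Foxd2 is listed at 0 and had 0.133 RPKM in the authors' deposited table. When the p of every row was adjusted by Benjamini-Hochberg over all named genes, the adjusted p of the authors' deposited table was 0.00667 for Foxc1, 0.0264 for Sox21 and 0.0275 for Foxd2. By that rule, chosen after seeing the data, 4.26% of all named genes were called higher, and Sox17 was not, at 0.0731. Gata2, a factor of blood progenitors and mast cells, had 0.00748 and 0.178 RPKM in the authors' deposited table.

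Several members lie next to each other in the genome, as relics of gene duplication, and their values could be compared by neighbourhood. On build mm9, Foxq1 (31650038 to 31652843), Foxf2 (31717684 to 31723275) and Foxc1 (31898514 to 31902504) span 252.466 kb on chromosome 13, by the coordinates in the files. All 3 had higher values in Eed-null villus, at 30.1, 1.53 and 0.295 RPKM, and Foxq1 and Foxf2 were called. Foxf1, Foxc2 and Foxl1 form the sister cluster on chromosome 8, with gaps of 29.291 kb and 8.79 kb. None of them was tested, and their Eed-null values stayed at or below 0.0511 RPKM. Foxf1, the close relative of Foxf2 in gut mesenchyme, had 0.0289 RPKM in wild-type and 0.0294 RPKM in Eed-null villus in the authors' deposited table. The difference between the clusters was not tested.

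**Figure D3:**
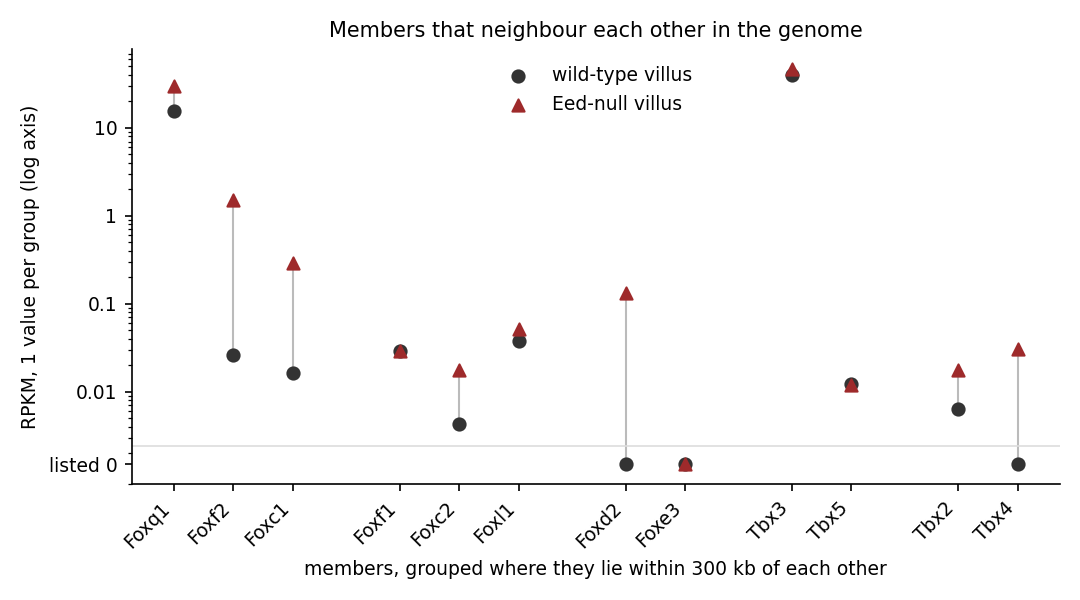
RPKM in wild-type and Eed-null villus, 1 authors' value per group on a log axis with values listed at 0 on the bottom margin, for the 12 members that lie within 300 kb of another member. Foxq1, Foxf2 and Foxc1 on chromosome 13 are all higher in Eed-null villus, whereas Foxf1, Foxc2 and Foxl1 on chromosome 8 are below 0.1 RPKM in both groups.

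Tbx3 and Tbx5, which lie 150.061 kb apart on chromosome 5, were far apart in level. Tbx3 was the most abundant member of all, while Tbx5, a heart and forelimb factor, had 0.0124 RPKM in wild-type and 0.0119 RPKM in Eed-null villus in the authors' deposited table. Tbx2 and Tbx4, neighbours on chromosome 11, were at or below 0.0310 RPKM in both groups. Foxe3, a lens factor next to Foxd2 on chromosome 4, is listed at 0 in every group.

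Some of the called members are known from cell types that an epithelial preparation could carry along, and markers of those cells were read beside them. In bulk RNA, fewer cells of a type and less RNA per cell cannot be told apart. For Foxf2, Tbx15 and Tbx18, which act in mesenchyme, 12 mesenchymal markers summed to 3.57 RPKM in wild-type and 5.55 RPKM in Eed-null villus. Without Tagln the other 11 summed to 1.81 and 2.95 RPKM, of which Vim made up 1.17 and 1.59 RPKM. Of all 12, the 11 above 0 had the higher value in Eed-null villus. Lum is listed at 0 in both, none of the 3 tested was called, and 3 untested markers had an authors' p at or below 0.05. For Sox17, 10 endothelial markers summed to 1.38 RPKM in wild-type and 0.859 RPKM in Eed-null villus. Of the 10, 6 had the higher value in Eed-null villus, and without Tek the other 9 summed to 0.622 and 0.669 RPKM. Tek was the endothelial gene called, and it was lower, with 0.762 RPKM in wild-type and 0.191 in Eed-null villus (the authors' deposited table). Cdh5 and Kdr, which define endothelium, are listed at 0 in wild-type and had 0.00328 and 0.00709 RPKM in Eed-null villus in the authors' deposited table.

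For Gata3, 12 markers of T cells and innate lymphoid cells summed to 100.1 RPKM in wild-type and 63.4 RPKM in Eed-null villus. Of the 9 tested, Gzmb, a granzyme, was the 1 called, and it was lower in Eed-null villus. For Foxd3, 10 nerve or glia markers summed to 80.9 and 61.2 RPKM, nearly all of it from Erbb3, which epithelium also expresses. Without Erbb3 the other 9 summed to 0.685 RPKM in wild-type and 4.30 RPKM in Eed-null villus, and of all 10, 6 had higher and 3 lower values in Eed-null villus. Ret, a receptor of enteric neurons, was the 1 of 2 tested called higher, with 0.419 RPKM in wild-type and 3.50 in Eed-null villus (the authors' deposited table). Sox10, the member that marks glia, is listed at 0 in both villus groups. For Sox9, 6 Paneth markers summed to 3222 RPKM in wild-type and 4575 RPKM in Eed-null villus, with Ang4 called higher, and 6 markers of dividing cells to 30.4 and 21.4 RPKM, with Mki67 called lower. Beside Foxq1 and the FoxA genes, which also act in secretory cells, 6 goblet markers summed to 5362 RPKM in wild-type and 8477 RPKM in Eed-null villus, with 3 called higher. The 6 enteroendocrine markers, of another secretory type, summed to 70.7 and 105.9 RPKM, all 6 with the higher value in Eed-null villus. Pax6 was the 1 called, with 0.333 RPKM in wild-type and 4.26 in Eed-null villus (q = 5.41e-12, the authors' deposited table). The part of these cells in the levels of the members was not tested.

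The comparison of wild-type villus with ISC asked how the same regulators change as stem cells become mature epithelium. Of the 78 members, 24 were tested, 11 were called higher in villus, 10 higher in ISC and 3 not called. Over all 13007 genes tested, calls made up 62.8%, split into 30.5% on the villus side and 32.3% on the ISC side, so a call is common among tested genes in this comparison. The 54 members not tested reached at most 0.215 RPKM in either group.

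**Figure D4:**
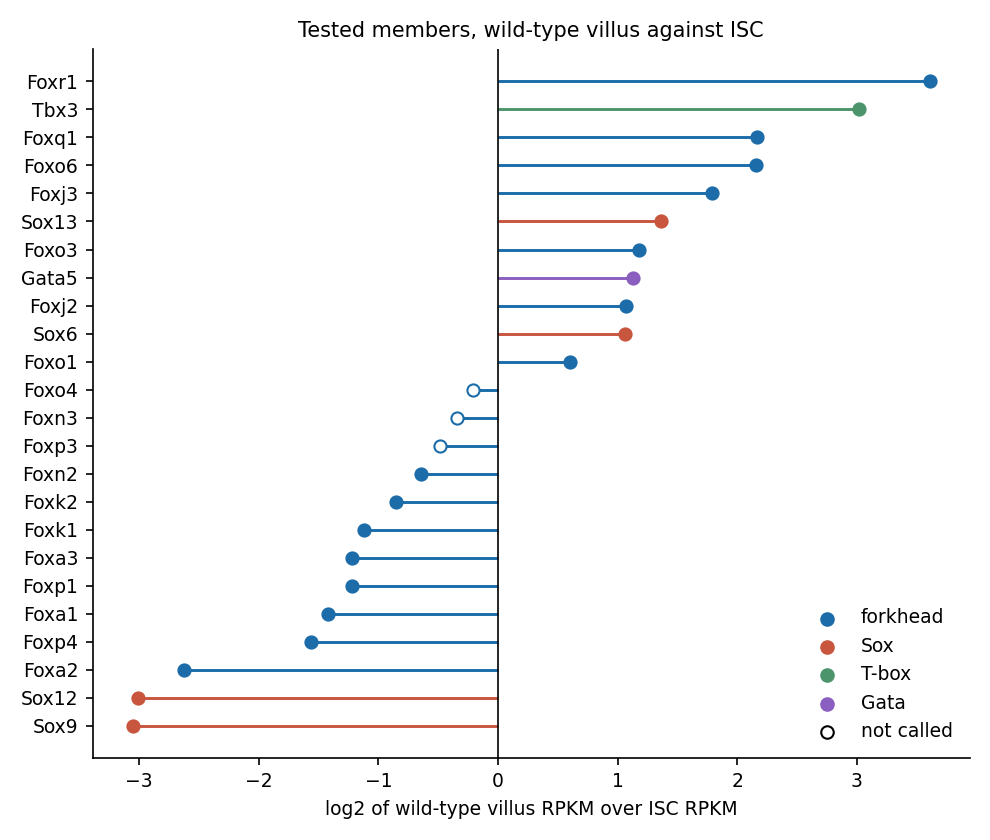
The log2 ratio of wild-type villus to ISC RPKM for the 24 tested members, with bars to the right for higher villus values, filled points for called members and open points for the 3 not called. The called members on the ISC side are the 3 FoxA genes, Foxp1, Foxp4, Foxk1, Foxk2, Foxn2, Sox9 and Sox12.

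All 3 FoxA genes, the pioneer factors of endoderm, were called higher in ISC. Foxa2 stood at 7.32 RPKM in ISC against 1.19 in villus, a 6.16-fold difference (q = 3.76e-12, the authors' deposited table). Foxa1 was 2.68-fold and Foxa3 2.33-fold higher in ISC, with q = 6.89e-07 and q = 4.14e-05 in the authors' deposited table. Of the FoxP genes, Foxp4 and Foxp1 were called higher in ISC, with Foxp4 at 27.7 against 9.38 RPKM (q = 4.32e-09) and Foxp1 at 6.29 against 2.69 RPKM (q = 2.81e-05) in the authors' deposited table. Foxp3, the regulatory T cell factor, stood at 0.884 RPKM in ISC against 0.630 in villus (q = 0.548, the authors' deposited table), and it shares its locus entry with other genes, so its reads cannot be assigned with certainty. Foxk1 and Foxk2, which repress autophagy genes, were 2.18-fold and 1.80-fold higher in ISC with q = 5.36e-06 and q = 0.000793 in the authors' deposited table.

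The 7 forkhead genes called higher in villus were Foxo1, Foxo3, Foxo6, Foxj2, Foxj3, Foxq1 and Foxr1. Foxo3 stood at 13.1 RPKM in villus against 5.79 in ISC (q = 1.8e-05), Foxo6 2.72 and 0.609 RPKM (q = 3.64e-05) and Foxo1 7.11 and 4.67 RPKM (q = 0.0224) in the authors' deposited table. The fourth FoxO gene, Foxo4, was not called, with 11.6 and 13.4 RPKM and q = 0.450 in the authors' deposited table. Foxj3 was 3.45-fold and Foxj2 2.10-fold higher in villus, with q = 3.52e-13 and q = 0.000794 in the authors' deposited table. Foxj1, a factor of ciliated cells, was not tested and had 0.151 RPKM in ISC and 0.00528 in villus (the authors' deposited table). Foxq1 stood at 18.1 RPKM in villus against 4.03 in ISC, a 4.49-fold difference (q = 1.71e-13, the authors' deposited table). Foxr1, a germline forkhead at a low level, had 0.631 and 0.0516 RPKM (q = 0.000872, the authors' deposited table). Of the FoxN genes, Foxn2 was 1.56-fold higher in ISC with q = 0.0150, and Foxn3 stood at 4.54 RPKM in ISC against 3.58 in villus (q = 0.346, the authors' deposited table).

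Of 18 Sox genes, 4 were tested and all 4 were called. Sox9 was 8.31-fold higher in ISC and q is listed as 0 in the authors' deposited table. Sox12, a group C factor, stood at 0.732 RPKM in ISC against 0.0909 in villus, an 8.05-fold difference (q = 1.59e-06, the authors' deposited table). Of the group D factors, Sox13 and Sox6 were called higher in villus, with Sox13 at 24.0 against 9.32 RPKM (q = 1.81e-08) and Sox6 at 5.83 against 2.79 RPKM (q = 0.000487) in the authors' deposited table. Sox5, the other group D factor, was not tested and had 0.0946 RPKM in ISC and 0.0117 in villus (the authors' deposited table). Tbx3 stood at 46.1 RPKM in villus against 5.68 in ISC, an 8.12-fold difference, and q is listed as 0 in the authors' deposited table. Gata5 was 2.19-fold higher in villus, at 28.3 against 12.9 RPKM (q = 2.51e-06, the authors' deposited table). Beside these values, all 6 markers of dividing cells and all 4 tested Paneth markers were called higher in ISC, as were 5 of 6 enteroendocrine markers, while 8 of 10 tested T cell markers were called higher in villus. Their part in the levels of the members was not tested.

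Relatives and partners of the 4 families were read from lists of genes chosen by function. Of 9 further T-box and HMG-box genes, 3 were tested between the villus groups and Tcf7, a Wnt-responsive HMG-box factor, was called higher in Eed-null villus, at 1.44 against 0.624 RPKM (q = 0.0462, the authors' deposited table). Tcf7 and Mga were the 2 of 3 tested that were called higher in ISC than in villus, by 8.63-fold and 2.31-fold. Eomes, a T-box gene of early embryo and lymphocytes, had 0.0356 RPKM in wild-type and 0.268 RPKM in Eed-null villus and was not tested. Of 6 partners of Gata factors, 3 were tested between the villus groups, and Lmo2, a bridging protein of Gata complexes in blood and endothelium, was called higher, at 2.27 against 0.264 RPKM (q = 3.86e-06, the authors' deposited table). Zfpm1, the Gata cofactor FOG1, had 15.5 RPKM in wild-type and 18.4 RPKM in Eed-null villus (q = 0.643, the authors' deposited table). Zfpm1 and Ldb1 were called higher in ISC.

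Hedgehog signalling, by which gut epithelium induces FoxF genes and Foxl1 in mesenchyme, showed 0 calls among 3 tested of 10 genes between the villus groups. The ligand gene Ihh had 23.0 RPKM in wild-type and 23.2 RPKM in Eed-null villus (q = 0.994, the authors' deposited table). None of the 3 tested had an unadjusted p at or below 0.05 there. The other ligand genes were not tested but had such a p, with Shh at 0.0396 RPKM in wild-type and 0.193 in Eed-null villus (p = 0.0240) and Dhh at 0.0491 and 0.188 RPKM (p = 0.0387) in the authors' deposited table. Of the pathway's target genes, Gli1 was not tested and had 0.00329 RPKM in wild-type and 0.0305 in Eed-null villus. Ptch1 had 0.950 and 0.701 RPKM (q = 0.597, the authors' deposited table), and Hhip is listed at 0 in both groups. Between villus and ISC, Ihh was called 5.12-fold higher in villus, and the receptor genes Smo and Ptch1 were called 21.0-fold and 4.95-fold higher in ISC.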

How the data were processed

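RNA was measured in 9 libraries of 3 groups, grouped by their titles. Another 14 libraries were not used. The authors deposited 2 tables, 1 per comparison, which hold 1 RPKM value for each gene in each group. RPKM is named, per the file headers, in the table for villus and ISC. The other table names no unit, and its wild-type villus values are those of the former divided by 1.16193 (range 1.16192 to 1.16194 over 10353 genes). For each gene the deposited p-value and its q-value come from the authors' own test, per the file headers. The q-values match a Benjamini-Hochberg adjustment over tested genes to within 8.02e-05. Per the submitters' processing notes, TopHat2 2.0.6, Cufflinks 2.0.1, Bowtie, Cuffdiff and build mm9 were used, without stated roles, and whether mm9 starts count from 0 or 1 is not stated. The libraries do not mark strand.

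From these tables members were found by name, calls counted, ratios of RPKM taken with no pseudocount, and differences taken of log2(RPKM + 1), with Python 3.11.15 and pandas 2.3.3. The entry naming no gene was left out. No model was fitted, since no value per library is printed, and the adjustment was tested on simulated data. Libraries of a group carry the label of biological replicates. The members and gene lists were chosen with earlier results of these data known, so none is independent support. Named are all called members, the 3 highest per family, Eed and called relatives; other members, marker genes and uncalled relatives were named after their values were seen. Alternatives were other thresholds on q, p or RPKM, a ratio of 2, another pseudocount, scaling by the median ratio, leaving out the 4 members that share a locus entry (Foxp3, Sox1, Sox2 and Sox15), and adjustment over all rows, the last chosen after seeing the data.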

Additional observations from a re-analysis of the deposited data

How the results depend on the processing

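No paired analysis was possible because the deposited tables carry 1 value per group, and for the same reason no replicate could be left out. Of the 9 members called higher in Eed-null villus, 5 were called with at least 1 RPKM required in a group. By a ratio of 2 and 1 RPKM, with no test and any status, 4 passed. While 0 were lower under either setting, Foxd3, Foxf2 and Tbx15 reached 1 RPKM only in Eed-null villus, so they could only be higher. Foxl2, Gata3, Sox17 and Tbx18 were lost under both, and Foxq1 under the ratio. Under the other 6 settings the count stayed within 1.5 times, with Sox17 lost at q of 0.01 and Foxa2 gained at q of 0.1. So did the count between villus and ISC under all 8. The median difference of log2(RPKM + 1) of the members was 0.02 between the villus groups and 0.13 with a pseudocount of 0.1. It was 0.00 between villus and ISC, -0.19 over members at 1 RPKM or more in a group and -0.20 over tested members. Scaling by the median ratio shifts all genes by 0.10 on the log2 scale between the villus groups and by 0.02 between villus and ISC, less than the smallest called difference of log2(RPKM + 1), 0.45 for Tbx18, so neither this nor the pseudocount could turn a direction. The depth per library is unknown, and between the villus groups the authors tested no gene below 0.351 RPKM in both.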

Other observations

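Genes next to the called members were read to see whether whole neighbourhoods differed. Within 100 kb of the 9 called members, the mm9 coordinates in the files place 15 genes that are no members, of which 7 were tested between the villus groups and 1 was called. That gene was Foxl2os, the transcript 296 bases from Foxl2, with 0.0108 RPKM in wild-type and 0.592 RPKM in Eed-null villus and q = 0.00100 in the authors' deposited table. The libraries do not mark strand, so reads of Foxl2 and Foxl2os near their shared start cannot be told apart. Among tested neighbours that were not called, Alg6 beside Foxd3 had 7.74 and 5.40 RPKM, Taf3 beside Gata3 1.29 and 1.02 RPKM, and Wars2 beside Tbx15 1.41 and 1.47 RPKM in wild-type and Eed-null villus in the authors' deposited table. Sox2ot, in whose locus Sox2 lies, had 0.128 and 0.119 RPKM, and Sox2 itself 0.0119 and 0.0843 RPKM in the authors' deposited table, neither of them tested.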
